A study of Drosophila melanogaster with 12 samples.

Results

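The proteasome subunit genes of Drosophila melanogaster were compared across cultured cells and larval brain, with and without knockdown of Atx2. Members were taken by FlyBase symbol alone, as every gene whose symbol begins with Prosalpha or Prosbeta, or with Rpn or Rpt and a digit, a rule that uses no measured value. The rule found 48 genes among the 17737 gene identifiers of the count tables. Of these, 32 are main subunits, with 14 in the core particle (7 of the alpha ring and 7 of the beta ring) and 18 in the regulatory particle (6 ATPases and 12 non-ATPase subunits). The other 16 are paralogs, named for a main subunit with an R or T added, and 11 of them belong to the core and 5 to the regulatory particle. No member carried an L. Sem1, a further subunit of the regulatory particle, has a symbol outside the rule and is not a member.

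The proteasome degrades proteins that carry chains of ubiquitin. Its core particle is a barrel whose outer alpha rings gate the entrance and whose inner beta rings hold the protease sites, and the regulatory particle on the end of the barrel binds the ubiquitin chain, removes it, and unfolds the substrate with a ring of ATPases. In Drosophila several subunits have a second gene copy, and many of these copies are known for expression in the testis.

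Poly(A) RNA was sequenced from 12 libraries in 4 groups of 3. The first pair of groups was S2 cells, a Drosophila line with properties of blood cells (hemocytes): the control cells were labelled as without treatment, and the others received Atx2 dsRNA, which triggers RNA interference. The second pair was whole brains dissected from 3rd instar larvae, with controls again labelled as without treatment and knockdown brains labelled elav gal4>Atx2 shRNA, a short hairpin RNA under a driver used for neurons. The labels name no control dsRNA and no driver or hairpin in the control brains, and give no further allele, strain, sex or age, so the effect of Atx2 loss cannot be told apart from that of the dsRNA, the driver or the strain. They do not say that replicates were separate cultures or animals, and p-values therefore measure the spread between these libraries, which may be technical. Brain libraries held RNA of all the cells of the dissected tissue, so fewer cells of a type and less RNA per cell cannot be told apart.

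Libraries held 14944637 to 31579528 counts. Atx2, the targeted gene, was at 242, 218 and 226 CPM (counts scaled to a common library size) in control S2 cells and at 149, 55.3 and 166 CPM with dsRNA, a log2 fold change of -0.89 ± 0.35 (SE) that did not pass the threshold (adjusted p = 0.0613, edgeR quasi-likelihood test over all genes). In brain it was at 187, 195 and 197 CPM in controls and at 92.4, 97.8 and 104 CPM with the hairpin, and fell by 0.97 ± 0.08 (adjusted p = 0.00271). Brain libraries carried neuron markers (5 genes summing to 1250.2 to 1747 CPM over both groups) and glia markers, and S2 control libraries the hemocyte marker list (1280 to 2000 CPM). Transcripts of other tissues stood out in some brain libraries: Sgs3, a salivary gland gene, reached 632 CPM in control library 3 against 0.13 to 12.5 CPM in the other brain libraries, and Jon65Aiv, a gut protease gene, reached 1397 CPM in shRNA library 1 against 0.13 to 1.19 CPM in the others. Throughout, CPM come from library sizes scaled with the TMM method (trimmed mean of M-values), ± after a level is the SD over 3 libraries, ± after a log2 fold change is its SE, and a gene was called where its adjusted p was under 0.05.

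Main subunits were abundant in every group. Per kilobase of exon, which allows levels to be compared between genes, the core subunits of control S2 cells had a median of 165 CPM (133.6 to 246) and the regulatory subunits a median of 105 CPM (72.4 to 153). In control brain the medians were 189 CPM per kb for the core (156 to 240) and 133 CPM per kb for the regulatory particle (94.5 to 177). The highest level in S2 control cells was that of Prosalpha6 (246 ± 17.0 CPM per kb), an alpha ring subunit, followed by Prosalpha2 (217 ± 4.41), and the lowest was that of Rpn13 (72.4 ± 0.927), a ubiquitin receptor. In control brain Prosalpha2 was highest (240 ± 23.7 CPM per kb), ahead of the protease subunit Prosbeta5 (223 ± 32.3) by less than the SD of either, and Rpn13 was again lowest (94.5 ± 4.70). The highest and lowest subunit differed 3.40-fold in S2 cells and 2.54-fold in brain. Prosalpha1, an alpha ring subunit, and Prosalpha1R, its neighbour on chromosome arm 2R, held 0 counts in all 12 libraries. Since the subunit belongs to every core particle, these zeros were not read as absence. Prosalpha1 is left out of what follows, and Prosalpha1R enters only the counts over all paralogs. This leaves 31 main subunits, 13 of the core and 18 of the regulatory particle, all of which passed the filter on low counts.

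**Figure D1:**
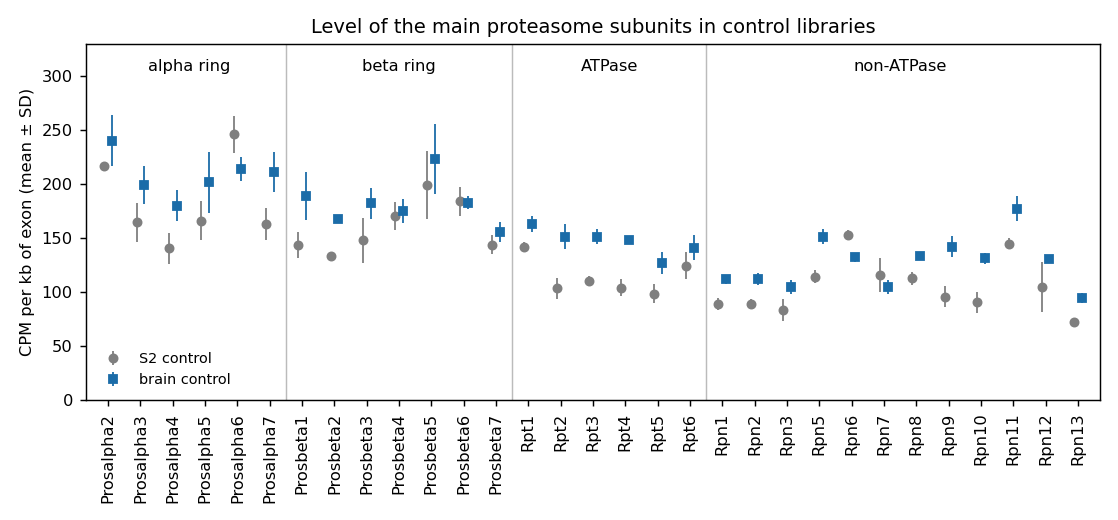
Mean level of each main subunit in the control libraries of S2 cells (grey circles) and larval brain (blue squares), in CPM per kilobase of exon, with the SD over 3 libraries as bars, scaled separately in S2 cells and brain. Core subunits, on the left, had higher medians (165 and 189 CPM per kb) than regulatory subunits, on the right (105 and 133 CPM per kb).

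Control brain and control S2 cells were compared on a common scale, for the question of how far the subunits differ between the systems. Of the 33 members tested, 14 were higher in brain, where 41.9% of all 10291 genes tested were higher, and 4 were lower, where 38.3% of all genes were lower. The share of members called higher was near that of all genes. The 14 were 4 of 13 core subunits, below the share of all genes, and 10 of 18 regulatory subunits, above it. The medians of core and regulatory subunits were 0.15 and 0.21 on the log2 scale, against 0.06 for all genes. The largest differences upward were those of Rpn9, a structural subunit of the lid (154 ± 13.3 CPM in S2 cells and 210 ± 15.5 in brain, log2 0.45 ± 0.09, adjusted p = 0.00238), and the ATPase Rpt2 (161 ± 10.3 and 217 ± 17.8 CPM, 0.43 ± 0.09, adjusted p = 0.00244). Rpn10, a ubiquitin receptor, followed with 0.41 ± 0.09, and the ATPases Rpt4 and Rpt3 with 0.39 ± 0.07 and 0.33 ± 0.07. Rpn5, a lid subunit, was higher by 0.28 ± 0.08 and Rpn13 by 0.26 ± 0.08.

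Among the protease subunits, Prosbeta1, which carries the caspase-like site, was higher in brain by 0.28 ± 0.11 (adjusted p = 0.0372), and Prosbeta2, which carries the trypsin-like site, by 0.21 ± 0.07 (adjusted p = 0.0211). Prosbeta5, with the chymotrypsin-like site, had a log2 difference of 0.04 ± 0.13 (adjusted p = 0.790). The main subunits called lower in brain were Rpn6, a lid subunit that in yeast contacts the alpha ring (285 ± 6.84 and 227 ± 8.48 CPM, -0.33 ± 0.07, adjusted p = 0.00283), Prosalpha6 (-0.32 ± 0.08, adjusted p = 0.00655) and the lid subunit Rpn7 (-0.27 ± 0.10, adjusted p = 0.0375). With library totals alone, which moved the median of all genes to 0.43, these values turned to 0.03, 0.04 and 0.09, and 28 members were called higher. Calls in this comparison also rested on single libraries, and 5 members were called higher without S2 control library 3, where 4123 of 10718 genes were. The fourth member called lower, the paralog Rpt6R, is described with the paralogs below.

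In S2 cells given Atx2 dsRNA, a few subunits of the regulatory particle were higher and no core subunit was called. Of 34 members tested, 6 were called higher and 0 lower, against 28.5% of all 9058 genes called higher and 26.6% called lower, a share below that of all genes. Under upper quartile scaling, under library totals alone and without dsRNA library 1 the members' share was above that of all genes, as given below. An unadjusted p under 0.05 was found for 9 members, and DESeq2 called 6 higher and 1 lower. The 6 called higher by edgeR were the ubiquitin receptor Rpn10, the ATPases Rpt6 and Rpt4, the scaffold subunit Rpn2, and the paralogs Rpt3R and Prosbeta2R2. Prosbeta2R2 passed the filter on low counts through its dsRNA libraries alone, so it entered the test through the group where it is high. Without it 5 of 33 members remain. Rpn10 (chromosome arm 3L, 21537000 to 21538582, in the BDGP6.54 annotation) was at 122, 145 and 120 CPM in control cells and at 174, 215 and 231 CPM with dsRNA. All 3 dsRNA libraries lay above all 3 controls, and the log2 fold change was 0.68 ± 0.14 (adjusted p = 0.00418).

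Rpt6 (chromosome X, 21316052 to 21317663) was at 157, 192 and 174 CPM in control cells and at 225, 256 and 267 CPM with dsRNA, again without overlap, with a log2 fold change of 0.51 ± 0.12 (adjusted p = 0.00810). Rpt4 went from 142, 165 and 151 CPM to 182, 214 and 241 CPM (0.47 ± 0.13, adjusted p = 0.0160). Rpn2 (chromosome arm 3R, 29153524 to 29157255) was at 299, 323 and 294 CPM in control cells and at 404, 384 and 388 CPM with dsRNA (0.36 ± 0.10, adjusted p = 0.0142). In each of these genes the groups did not overlap. The calls of Rpn10 and Rpt6 were made under all 15 alternative settings, those of Rpn2 under 13 and those of Rpt4 under 10.

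No subunit of the core particle was called. Its 13 subunits had log2 fold changes from -0.34 to 0.29 with a median of 0.07, against a median of 0.04 over all genes, and 0 were called by edgeR, 2 had an unadjusted p under 0.05, and DESeq2 called 1 lower. The 18 regulatory subunits had a median of 0.21, from -0.09 to 0.68, and 16 of their 18 values were above 0. In 7 regulatory subunits (Rpn2, Rpn5, Rpn6, Rpn10, Rpt3, Rpt4 and Rpt6) the dsRNA libraries lay wholly above the controls, and in none wholly below. In the core the dsRNA libraries lay wholly below the controls in Prosalpha6 and Prosalpha7 and wholly above in none. Over all genes tested, 33.3% had dsRNA libraries wholly above and 30.5% wholly below. Prosalpha7, the last of the alpha ring, was at 152, 176 and 150 CPM in control cells and at 103, 141 and 133 CPM with dsRNA, with a log2 fold change of -0.34 ± 0.14 (adjusted p = 0.0744).

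Of the protease subunits, Prosbeta1 was at 122 ± 10.3 CPM in control cells and 133 ± 17.3 CPM with dsRNA (log2 0.12 ± 0.13, adjusted p = 0.444). Prosbeta2 was at 138 ± 1.63 and 163 ± 23.4 CPM (0.24 ± 0.13, adjusted p = 0.141), and Prosbeta5 at 227 ± 35.9 and 237 ± 49.4 CPM (0.06 ± 0.18, adjusted p = 0.796). The spread of Prosbeta5 came with dsRNA library 1, at 180 CPM against 266 CPM in each of the other two. That library was the lowest of the 6 at 13 of the 31 main subunits, and without it 14 members were called higher, among them 4 core and 8 regulatory subunits, while 2775 of 9316 genes were. The medians without it were 0.22 for the core and 0.27 for the regulatory particle, against 0.04 for all genes. Without S2 control library 3 the count was 3, while 1901 of 9292 genes were called higher.

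The scale set how many subunits were higher in S2 cells. Before any scaling, the members together held 0.442 to 0.523% of all counts in control libraries and 0.650 to 0.788% in dsRNA libraries. Scaling by library totals alone put the median of all genes at 0.53 and called 31 of the 34 members higher, with 11 of 13 core and 18 of 18 regulatory subunits, while it called 4906 of all 9058 genes higher and 1324 lower. Upper quartile scaling put the median at 0.22 and called 16 members higher, with 3406 of all genes higher and 1870 lower. Under TMM, with 2580 genes higher and 2406 lower, the values above are relative to a median of 0.04. The hemocyte markers moved with the group, from 1280 to 2000 CPM in control cells to 213 to 277 CPM with dsRNA, and their part in the subunit values was not tested.

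**Figure D2:**
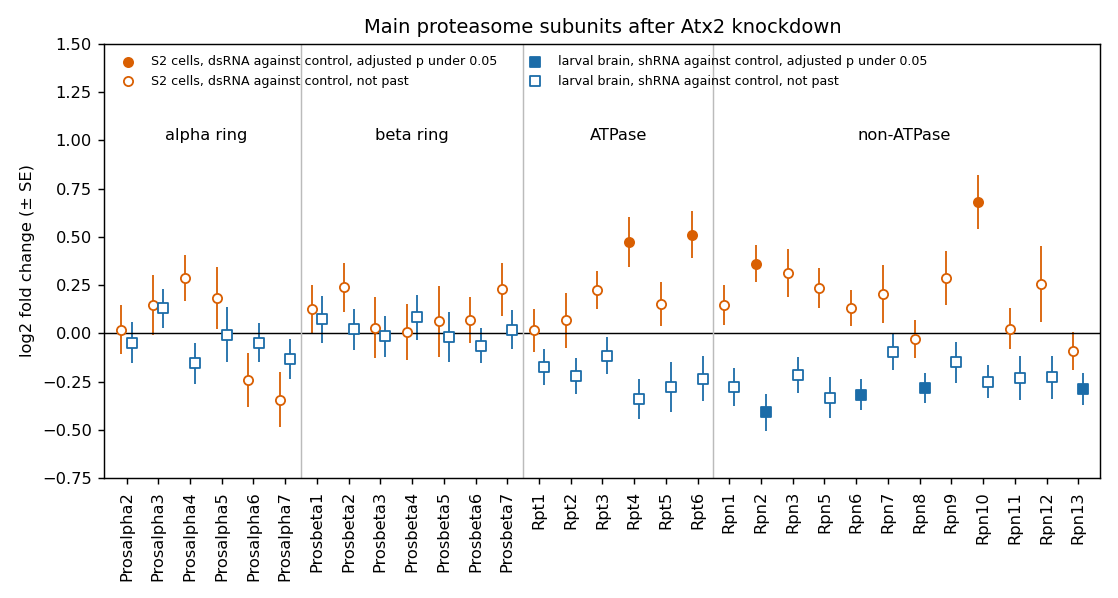
Log2 fold change of the 31 main subunits after Atx2 knockdown in S2 cells (orange circles) and larval brain (blue squares), with SE as bars and filled symbols where the adjusted p was under 0.05. The core subunits on the left lie around 0 in both systems, while the regulatory subunits on the right have medians of 0.21 in S2 cells and -0.24 in brain.

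In brains with the Atx2 hairpin, the levels of regulatory subunits lay below those of control brains, and those of core subunits lay near them. All 18 regulatory subunits found by the symbol rule had a log2 fold change below 0, from -0.41 to -0.10 with a median of -0.24. The 13 core subunits ranged from -0.15 to 0.13 with a median of -0.01, and all genes had a median of 0.01. Sem1, the regulatory subunit outside the rule, went the other way in brain, at 0.23 ± 0.10 with overlapping groups (adjusted p = 0.155). In S2 cells its value was 0.00113. Few single values of the members passed the test: of 33 members tested, 0 were called higher and 5 lower. Over all 10438 genes 11.5% were called higher and 11.5% lower. The share of members called lower was thus near that of all genes, and the share called higher was below it. DESeq2 called 0 members higher and 9 lower, where it called 1706 of all genes higher and 1622 lower. An unadjusted p under 0.05 was found for 9 members and for 4117 of all genes. The 4 main subunits called lower were Rpn2, Rpn6, Rpn8 and Rpn13, all non-ATPase subunits, and the fifth member was the paralog Rpt3R. No core subunit was called by edgeR or DESeq2, and 0 had an unadjusted p under 0.05.

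Rpn2, which forms part of the base of the regulatory particle, was at 394, 361 and 396 CPM in control brains and at 257, 298 and 312 CPM with the hairpin, a fall of 0.41 ± 0.09 on the log2 scale (adjusted p = 0.0264). Rpn6 was at 267, 254 and 251 CPM in controls and at 189, 214 and 218 CPM with the hairpin, and fell by 0.32 ± 0.08 (adjusted p = 0.0370). For both genes every hairpin library lay below every control. Rpn13 was at 167, 156 and 152 CPM and then 120, 137 and 131 CPM (-0.29 ± 0.08, adjusted p = 0.0474). Rpn8, the partner of the deubiquitinase Rpn11, was at 209, 208 and 199 CPM and then 155, 174 and 177 CPM (-0.28 ± 0.08, adjusted p = 0.0467). The values of Rpn5 (-0.33 ± 0.11, adjusted p = 0.0653) and Rpt4 (-0.34 ± 0.10, adjusted p = 0.0572) were as large and did not pass. Rpn10, called in S2 cells, had a value of -0.25 ± 0.08 in brain (adjusted p = 0.0759).

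In 13 of the 18 regulatory subunits the hairpin libraries lay wholly below the controls, and in 0 of the 13 core subunits, while 22.5% of all genes tested lay wholly below and 22.0% wholly above. The protease subunits showed overlapping groups. Prosbeta1 was at 161 ± 19.3 CPM in control brain and 169 ± 18.3 CPM with the hairpin (log2 0.07 ± 0.12, adjusted p = 0.700). Prosbeta2 was at 174 ± 2.72 and 176 ± 22.1 CPM (0.02 ± 0.10, adjusted p = 0.904), and Prosbeta5 at 254 ± 36.8 and 251 ± 24.5 CPM (-0.02 ± 0.13, adjusted p = 0.931).

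Single libraries weighed on the brain calls. Library 1 with the hairpin was the lowest of the 6 at 29 of 31 main subunits, and control library 1 was the highest at 25. The count of members called lower went from 5 to 0 without control library 1, 2 or 3 or without shRNA library 2, and to 1 without shRNA library 1. Calls fell over all genes as well: the count called lower went from 1198 to 504, 208 and 711 without control library 1, 2 and 3. It was 399 without shRNA library 2 and 679 without shRNA library 1. The count of members was 0 when control library 3 and shRNA library 1, which held the salivary gland and gut transcripts, were both left out, with 520 of 10483 genes called lower. DESeq2 called 9 members and 1622 of 10438 genes lower. The values themselves moved less: with 1 library left out, Rpn2 ranged from -0.46 to -0.33, and without both of those libraries it was -0.31. The median of the regulatory subunits was -0.16 without shRNA library 1 and -0.21 without both of those libraries, against 0.07 and 0.03 for the core. Marker sums differed between the brain groups as well: glia markers were at 614 to 671 CPM in controls and 868 to 1122 CPM with the hairpin, and hemocyte markers at 121 to 205 and 285 to 436 CPM. The neuron list overlapped between the groups, at 1250.2 to 1640 CPM in controls and 1486 to 1747 CPM with the hairpin, and within it elav was at 482 to 600 and 330 to 344 CPM. Fat body markers were at 22.0 to 304 CPM in controls and 74.2 to 2787 CPM with the hairpin, and muscle markers at 35.7 to 183 and 149.9 to 768 CPM. The part of these transcripts in the subunit values was not tested.

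**Figure D3:**
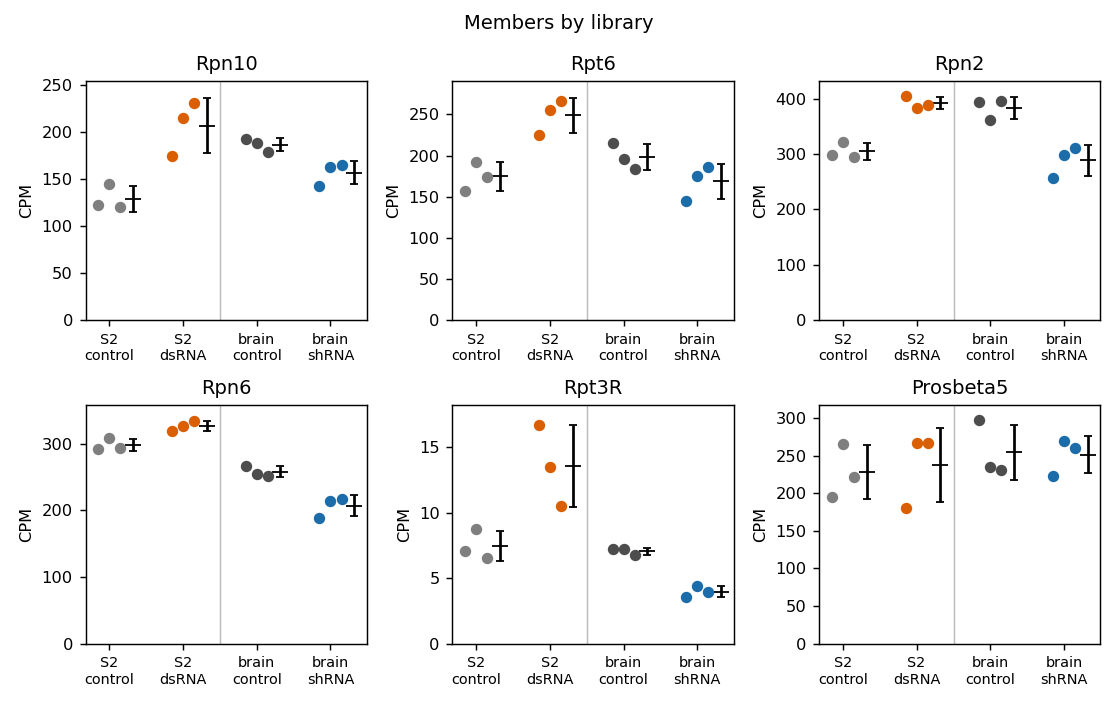
Level in each library, in CPM, of 4 regulatory subunits, the paralog Rpt3R and the protease subunit Prosbeta5, with points for libraries and a cross with bars for the mean and SD over 3. Rpn10, Rpt6 and Rpn2 are higher in every dsRNA library than in any S2 control, Rpn2, Rpn6 and Rpt3R are lower in every hairpin library than in any control brain, and Prosbeta5 overlaps in both systems.

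The balance of regulatory and core transcripts can be read within each library, where no scaling factor enters. Summed over main subunits per kilobase of exon, the ratio of regulatory to core counts was 0.890, 0.869 and 0.875 in control S2 cells and 1.08, 0.937 and 0.968 with dsRNA. In brain it was 0.920, 0.967 and 0.983 in controls and 0.819, 0.800 and 0.822 with the hairpin. The groups did not overlap in either system, and the ratio was higher with dsRNA and lower with the hairpin. These log2 changes of 0.18 and -0.23 compare with a pooled SD between libraries of 0.08 and 0.04, and they are a description without a test, since the members were known when the ratio was formed. Leaving out each library in turn gave 0.12 to 0.22 in S2 cells, with the lowest without dsRNA library 1, and -0.26 to -0.21 in brain.

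**Figure D4:**
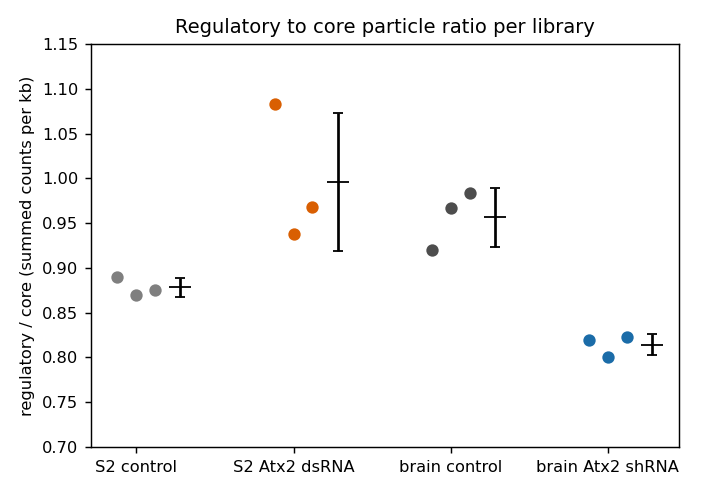
Ratio of summed regulatory to summed core counts per kilobase of exon in each library (points), with the mean and SD of each group (cross and bars); the axis starts at 0.7. The ratio is 0.869 to 0.890 in control S2 cells and 0.937 to 1.08 with dsRNA, and 0.920 to 0.983 in control brain and 0.800 to 0.822 with the hairpin.

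The sums behind the ratio are transcript counts over 13 core and 18 regulatory genes, and do not measure the amount of either particle. The core sum was 2222 ± 181 CPM per kb in control S2 cells and 2307 ± 351 with dsRNA, and the regulatory sum 1950 ± 138 and 2280 ± 196 CPM per kb. In brain the core sum was 2524 ± 204 CPM per kb in controls and 2502 ± 262 with the hairpin, and the regulatory sum 2410 ± 109.6 and 2036 ± 208 CPM per kb. Balances of transcripts within the particles were read in the same way. The ratio of ATPase to non-ATPase sums was 0.539 ± 0.00782 and 0.554 ± 0.00802 in S2 cells and 0.578 ± 0.0122 and 0.590 ± 0.00767 in brain, controls first, and its groups overlapped. The ratio of beta to alpha ring sums was 1.02 ± 0.0343 and 1.10 ± 0.0235 in S2 cells and 1.02 ± 0.0155 and 1.06 ± 0.0170 in brain, where Prosalpha1 adds nothing to the alpha ring. Its groups did not overlap in either system, with 0.988 to 1.06 and 1.08 to 1.12 in S2 cells and 1.01 to 1.04 and 1.05 to 1.08 in brain.

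Exon length moves with the particle and with the fold changes. The core subunits had a median exon length of 973 bases (815 to 1215) and the regulatory subunits of 1589 bases (995 to 3412). Across the 31 main subunits, which share their libraries, Spearman's rho of log2 fold change with exon length was 0.34 in S2 cells and -0.79 in brain. Within the particles it was 0.40 in the core and -0.07 in the regulatory particle in S2 cells, and -0.34 and -0.41 in brain. With the length trend of all genes removed in each library, rho over the 31 main subunits was 0.50 in S2 cells and -0.57 in brain. Within the core and the regulatory particle it was then 0.42 and 0.12 in S2 cells, and -0.09 and -0.05 in brain. The medians after this removal were -0.04 for the core and 0.16 for the regulatory particle in S2 cells, and -0.12 and -0.29 in brain. The difference between the particles was thus 0.15 on the log2 scale before and 0.20 after in S2 cells, and -0.23 before and -0.17 after in brain, and what length adds beyond this was not tested. Without the correction, the S2 difference was 0.0473 without dsRNA library 1 and 0.0870 without control library 2, and the brain difference was -0.26 to -0.21 with 1 library left out.

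The brain and S2 effects differed for 12 of the 34 members tested, all in the direction of a lower value in brain. Over all 11176 genes tested for this interaction, 21.4% were called lower in brain relative to S2 cells and 19.7% higher, and 0 members were called higher by edgeR or DESeq2. The 12 comprised 9 of 18 regulatory subunits, 1 of 13 core subunits (Prosalpha4) and the paralogs Rpt3R and Prosbeta2R2, the last of which passed the filter through its dsRNA libraries alone. All 18 regulatory values were below 0, with a median of -0.43, against -0.06 for the core and -0.10 for all genes. The value of Sem1, outside the symbol rule, was 0.24 (adjusted p = 0.320). The main subunits with the largest differences were Rpn10 (-0.92 ± 0.15, adjusted p = 0.000728), Rpt4 (-0.81 ± 0.16, adjusted p = 0.00192), Rpn2 (-0.76 ± 0.12, adjusted p = 0.000641) and Rpt6 (-0.74 ± 0.16, adjusted p = 0.00305). Rpn2 passed the test upward in S2 cells and downward in brain, and Rpt3R did the same. The lid subunits Rpn5 (-0.56 ± 0.14) and Rpn3 (-0.52 ± 0.14) also passed, with adjusted p-values of 0.00681 and 0.0119. This test uses the same libraries as the knockdown comparisons and is not further evidence for either. With library totals alone, where the median of all genes was -0.57, 27 members were called lower.

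Most paralogs held few or no counts at this depth, among them Prosalpha1R, whose zeros are not read as absence. Of the 16, 11 stayed under 10 counts in every library, and 5 reached 10 counts in at least one: Rpt6R, Rpt3R, Prosbeta2R2, Rpt4R and Prosalpha4T1. The labels do not say how reads shared by near-identical copies were counted, so values of the paralogs are uncertain to that extent. Rpt6R (chromosome arm 3R, 30582198 to 30583697, minus strand), a copy of the ATPase gene Rpt6, was the exception in S2 cells. It held 1642, 2310 and 1776 counts in control S2 cells and 37, 28 and 49 counts in control brain, and on the common scale was at 79.1 ± 13.2 CPM in S2 cells and 1.11 ± 0.313 CPM in brain, a log2 difference of -6.16 ± 0.23 (adjusted p = 8.79e-08, 71.3-fold).

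Rpt6R therefore made up 31.4 ± 1.95% of the summed level per kilobase of Rpt6R and Rpt6 in control S2 cells, and 0.618 ± 0.207% in control brain. With dsRNA its share was 20.7 ± 1.31%, with no overlap between 29.5 to 33.4% in controls and 19.3 to 21.9% with dsRNA. Rpt6R itself was at 67.7, 99.1 and 81.5 CPM in control cells and at 55.4, 69.1 and 77.0 CPM with dsRNA (log2 -0.30 ± 0.17, adjusted p = 0.173), while its main gene Rpt6 rose by 0.51. In brain with the hairpin the share was 0.612 ± 0.0599%, and Rpt6R had a value of -0.24 ± 0.33 (adjusted p = 0.620).

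Rpt3R (chromosome arm 3R, 9754735 to 9756510, minus strand), a copy of the ATPase gene Rpt3, was present in both systems and moved in opposite directions. It was at 7.09, 8.76 and 6.51 CPM in control S2 cells and at 16.7, 13.5 and 10.5 CPM with dsRNA, and rose by 0.87 ± 0.22 on the log2 scale (adjusted p = 0.0117). In brain it was at 7.21, 7.20 and 6.77 CPM in controls and at 3.61, 4.41 and 3.95 CPM with the hairpin, and fell by 0.82 ± 0.19 (adjusted p = 0.0278). The groups did not overlap in either system, and the difference between the effects was -1.69 ± 0.30 (adjusted p = 0.00105). Its share of the Rpt3R and Rpt3 level was 4.42 ± 0.512% in control S2 cells, 6.77 ± 1.69% with dsRNA, 3.12 ± 0.0958% in control brain and 1.93 ± 0.136% with the hairpin. The S2 call was lost without control library 3 (adjusted p = 0.0590), and the brain call was lost when each of the 6 brain libraries was left out in turn, with values of -0.90 to -0.76. Of its exon bases, 20 overlap Alg12 on the opposite strand, which is 1.4% of its exon length. Among main subunits such overlap was larger for some, with 15.7% for Rpn9, 13.0% for Rpt6, 7.9% for Prosbeta2, 7.1% for Rpt2 and 6.3% for Rpt4. The strand setting of the counts is not known, and the part of opposite-strand reads was not tested.

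**Figure D5:**
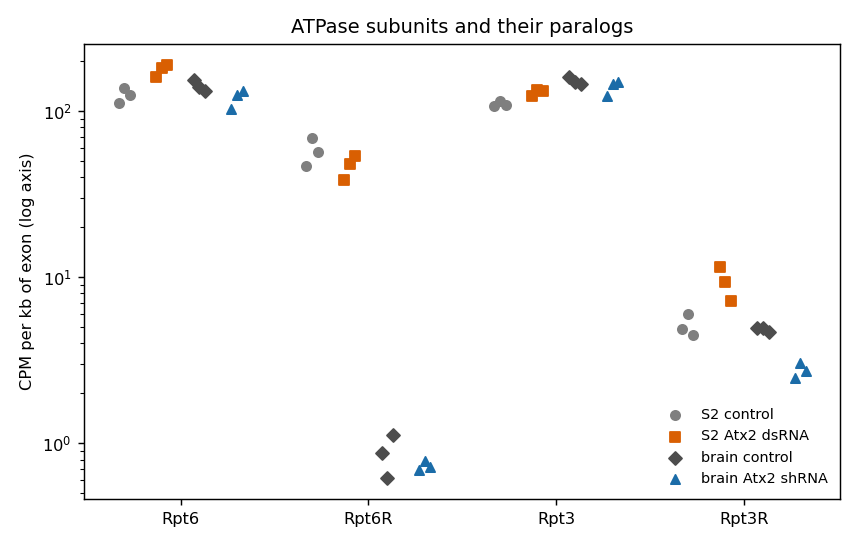
Level of the ATPase subunits Rpt6 and Rpt3 and of their paralogs Rpt6R and Rpt3R in each of the 12 libraries, in CPM per kilobase of exon on a log axis, scaled separately in S2 cells and brain. Rpt6R lies below Rpt6 in S2 cells and near 1 CPM per kb in brain, and Rpt3R is higher with dsRNA and lower with the hairpin than in its controls.

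The remaining paralogs held few counts. Prosbeta2R2, a copy of the protease subunit Prosbeta2, held 0, 2 and 3 counts in control S2 cells and 54, 28 and 13 with dsRNA. It was tested because its dsRNA libraries passed the filter, which its controls did not, so its fitted log2 fold change of 4.18 ± 0.76 over 5 control counts is given as a description. With dsRNA its share of the Prosbeta2R2 and Prosbeta2 level was 0.713 ± 0.498%. In brain it held 3 to 11 counts per library and was under the filter. Prosalpha4T1, a testis copy of Prosalpha4, held 1, 3 and 1 counts in control brain and 12, 9 and 6 with the hairpin, a share of 0.0340 ± 0.0228% and 0.238 ± 0.114%, and was not tested. Rpt4R was uneven between brain libraries, with 4, 17 and 0 counts in controls and 23, 0 and 3 with the hairpin.

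Counts for paralogs were also found more widely after knockdown in S2 cells, where 13 of the 16 had at least 1 count in the dsRNA group against 3 in the control group. The paralogs counted in the dsRNA group alone held only 1 to 13 counts each, summed over its 3 libraries, and most of them held 1. In brain 12 had a count with the hairpin and 10 in controls. The dsRNA libraries held counts for more genes in general (11896 to 12615 against 11138 to 11627) although their totals were lower. The testis marker list, 11 genes, summed to 26.1 to 33.0 CPM in control S2 cells and 40.1 to 47.4 CPM with dsRNA. Its highest gene in both groups was mia, at 17.9 to 26.1 CPM in control cells and 16.5 to 19.6 CPM with dsRNA. The early germline gene bam went from 1.32 to 1.93 CPM up to 12.8 to 15.1 CPM, and topi from 4.68 to 5.56 CPM up to 7.18 to 10.7 CPM. For mia and sa the groups overlapped. The genes betaTub85D, can, comr, Mst87F and dj reached at most 0.171 CPM in any S2 library, and aly and Mst98Ca were at 0 in both groups. The rise of the sum was thus not shared by the whole list, and the part of these genes in the paralog counts was not tested.

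Genes that work with the proteasome were followed in a list of 24 assembly factors, activators, deubiquitinases, ubiquitin shuttles, ubiquitin genes and regulators, of which 21 were matched by symbol and all were tested. In S2 cells 3 rose and 1 fell, where 28.5% of all genes were called higher and 26.6% lower. The risers were the polyubiquitin genes Ubi-p63E (250 ± 16.4 CPM in control cells and 376 ± 52.8 with dsRNA, log2 0.59 ± 0.13, adjusted p = 0.00587) and Ubi-p5E (0.36 ± 0.13, adjusted p = 0.0396), and rngo, the Drosophila member of the Ddi family of ubiquitin-binding proteins (84.7 ± 7.67 and 119 ± 5.30 CPM, 0.49 ± 0.11, adjusted p = 0.00587). The polyubiquitin genes are made of near-identical repeats, so reads may be split between them, and the call of Ubi-p5E was made under 8 of 15 alternative settings. The gene that fell was ntc, whose F-box protein binds the proteasome regulator PI31 (14.5 ± 0.991 and 5.31 ± 2.62 CPM, -1.46 ± 0.36, adjusted p = 0.00975). The list had a median of 0.15 in S2 cells, and the transcription factor gene cnc, a relative of the mammalian factors that control proteasome genes, had a value of -0.62 (adjusted p = 0.0897).

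In brain 4 genes of this list fell and 1 rose, where 11.5% of all genes were called in each direction, and the median was -0.15 against 0.01 for all genes. Uch-L5, a deubiquitinase of the regulatory particle, went from 127 ± 5.22 CPM in controls to 91.8 ± 11.1 CPM with the hairpin (-0.47 ± 0.10, adjusted p = 0.0239). Uba1, the enzyme that activates ubiquitin, was at 986, 944 and 1010 CPM in controls and at 678, 753 and 782 CPM with the hairpin (-0.41 ± 0.08, adjusted p = 0.0155). The other two that fell were Npl4, a cofactor of the segregase that hands substrates to the proteasome (-0.37 ± 0.08, adjusted p = 0.0232), and the shuttle Ubqn (-0.34 ± 0.08, adjusted p = 0.0246). The gene that rose was maf-S, a partner of cnc (50.9 ± 3.31 and 65.7 ± 4.25 CPM, 0.37 ± 0.08, adjusted p = 0.0236), and cnc itself had a value of 0.04. With the exon length trend removed, maf-S was at 0.18 (adjusted p = 0.156), and at 0.0192 with the least squares form of that trend. None of these 5 calls held when control library 3 and shRNA library 1 were both left out, with values then of -0.38 for Uch-L5, -0.33 for Uba1, -0.33 for Npl4, -0.29 for Ubqn and 0.36 for maf-S.

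The effects on this list differed between brain and S2 cells for 8 of its 21 genes, 7 toward a lower value in brain and 1 toward a higher one, where 21.4% and 19.7% of all genes were called in these directions. The largest were Ubi-p63E (-0.82), Ubi-p5E (-0.73), Uba1 (-0.66) and Npl4 (-0.64), and ntc in the other direction (1.52 ± 0.46). Between control brain and control S2 cells, 4 genes of the list were higher in brain (41.9% of all genes were), with Ubi-p5E (0.69) and Npl4 (0.68) ahead of Uch-L5 (0.54) and Uba1 (0.30). The 5 lower in brain (38.3% of all genes were) included ntc (-1.53), the glycanase Pngl (-1.07) and PI31 (-0.76), while the value of Ubqn (-0.28) became 0.08 with library totals alone.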

How the data were processed

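The authors deposited 1 table of raw gene counts for each of the 12 samples. Per the submitters' processing notes, the tools were cutadapt 1.13, STAR, HTSeq 0.6.1p1 and DESeq2 and the genome build BDGP6, with no roles or order stated. Per the labels' protocols, libraries came from TruSeq mRNA preparation. The sources used here do not give the strand setting, the annotation release or any filter.

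Gene symbols, positions and union exon lengths were read from a BDGP6.54 annotation. It held 17599 of the 17737 identifiers, all 48 members included. The test was that of edgeR 4.0.16 (R 4.3.3): filterByExpr (minimum count 10), TMM scaling, quasi-likelihood F test, Benjamini-Hochberg adjustment over all genes tested. The SE is the log2 fold change divided by the root of F. CPM are counts per TMM-scaled library size, within each comparison's libraries. The interaction used 1 fit of all 12 libraries. The fit was run on simulated data with 200 changed genes, balanced up and down. That is far fewer than were called here, so the run does not test the scaling of the S2 libraries. Replicates were checked for duplicates (chi-square per degree of freedom 22.1 to 154), and none differed by as little as sampling noise.

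Full statistics were given for called members, up to 8 in each direction per comparison, the 3 catalytic subunits, paralogs with at least 10 counts in a library, Atx2, and up to 4 called genes of the proteasome list in each direction. Genes named for non-overlapping groups or values near the threshold were chosen after their values were seen. So were Sem1, library ranks, ratios within a particle and the link to exon length. Members and lists were chosen with earlier results of these data known. Alternatives were other scalings and filters, DESeq2 1.42.0, replicate numbers as a block, and libraries left out. Removal of the exon length trend and sums without length correction were added after seeing the data. No sequence is printed.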

Additional observations from a re-analysis of the deposited data

Results flagged for a closer look

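For 12 members the test of the difference between the brain and S2 effects passed the threshold, with the hairpin value below the dsRNA value on the log2 scale in each. The difference was -4.52 for Prosbeta2R2, which passed the filter on low counts through its dsRNA libraries alone and is given as a description, and -1.69 for Rpt3R. Among regulatory subunits it was -0.92 for Rpn10, -0.81 for Rpt4, -0.76 for Rpn2, -0.74 for Rpt6, -0.56 for Rpn5, -0.52 for Rpn3, -0.44 for Rpn6, -0.42 for Rpn1 and -0.33 for Rpt3. The core subunit with such a difference was Prosalpha4, at -0.43. Rpn1, a scaffold subunit that also binds ubiquitin chains, was at 271 ± 17.3 and 301 ± 16.8 CPM in S2 cells and at 340 ± 13.7 and 281 ± 30.6 CPM in brain, controls first. Over all genes the median difference was -0.10, and 21.4% of genes were called in this direction.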

How the results depend on the processing

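In S2 cells, members called higher numbered 6, with 16 under upper quartile scaling, 31 under library totals alone and 3 to 14 with 1 library left out. Members called lower numbered 0, with 1 by DESeq2, 1 with the replicate block, 2 with the exon length trend removed and 3 when that trend was fitted by least squares. That least squares form was run first and was replaced by a robust fit after its counts over all genes were seen (2290 higher and 2939 lower, against 2777 and 2564). In brain, members called lower numbered 5, with 2 under upper quartile scaling, 3 under library totals alone, 2 without a filter, 3 with a stricter one, 9 by DESeq2, 0 with the replicate block, 0 without control library 3 and shRNA library 1, and 0 to 5 with 1 library left out. Over all genes, 1198 were called lower in brain, with 1622 by DESeq2 and 26 with the replicate block. The count was 520 without control library 3 and shRNA library 1, and 208 to 1042 with 1 library left out. Between control brain and S2 cells, members called higher numbered 14, with 28 under library totals alone, 7 without a filter and 5 to 15 with 1 library left out, and members called lower numbered 4, with 1 under library totals alone. For the interaction, 12 were called lower, with 27 under library totals alone.

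Values that changed sign included 4 called ones, Rpn6, Prosalpha6, Rpn7 and Ubqn between controls. In S2 cells Prosbeta1 became -0.15 with the length trend fitted by least squares, Prosbeta5 became -0.0436 and -0.163 with the robust and least squares trend and -0.0560 to 0.22 with 1 library left out, and Rpt6R became 0.18 under library totals alone. In brain the robust and least squares trends gave -0.0622 and -0.203 for Prosbeta1 and -0.0754 and -0.200 for Prosbeta2, and leaving out 1 library gave -0.0174 to 0.161 and -0.0418 to 0.121. Prosbeta5 became 0.0101 under upper quartile scaling and 0.0141 with the stricter filter, with -0.0891 to 0.105 for 1 library left out, and Rpt6R became 0.0180 without control library 3 and shRNA library 1. Between controls, library totals alone gave 0.0327 for Rpn6, 0.0376 for Prosalpha6, 0.0924 for Rpn7, 0.161 for Rpt3R and 0.0824 for Ubqn, and Prosbeta5 was -0.0607 to 0.134 with 1 library left out. For the interaction, leaving out 1 library gave -0.134 to 0.0855 for Prosbeta1, -0.223 to 0.0906 for Prosbeta5, -0.127 to 0.290 for Rpt6R and -0.432 to 0.177 for Atx2, and Rpt6R was -0.0869 and -0.415 under upper quartile scaling and library totals alone. The cause of these changes was not tested.

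Between libraries with the same replicate number, the correlations of deviations were 0.44, 0.38 and 0.03 in S2 cells and 0.03, 0.22 and -0.44 in brain. Between libraries with different numbers they were -0.44 to 0.30 in S2 cells and -0.44 to 0.42 in brain. The values for numbers 1 and 2 in S2 cells thus lay above all those of different numbers, and in brain no value did. With the block, the 5 brain calls were lost, as were those of the proteasome list in brain. Nearly all brain calls were lost with it, since 14 of 10438 genes were called higher and 26 lower, against 1199 and 1198 without it. In S2 cells the block gave 8 members called higher and 1 lower, where 2792 of all genes were called higher and 2686 lower. The value of Atx2 in S2 cells passed the threshold under 7 of 15 alternatives.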
